A study of Mus musculus with 44 samples.

Results

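The nuclear genes for oxidative phosphorylation were followed as a set through mRNA and N6-methyladenosine (m6A) sequencing of mouse skeletal stem and progenitor cells. Members were chosen by symbol alone, as the genes of the count table whose names start with Nduf, Sdha, Sdhb, Sdhc, Sdhd, Uqcr, Cox4, Cox5, Cox6, Cox7, Cox8 or Atp5, and 4 symbols with -ps or -rs (pseudogene or related sequence) were left out. This gave 96 of 46831 genes. They comprised 36 subunits of complex I, 4 of complex II, 8 of complex III, 11 of complex IV, 15 of complex V, 7 assembly factors of complex I and 4 of complex II, 7 alternative isoforms of complex IV, the Ndufa4 paralog Ndufa4l2, the supercomplex factor Cox7a2l, and Atp5s and Atp5sl, which carry ATP synthase names but are not subunits.

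Oxidative phosphorylation couples the transfer of electrons along the inner mitochondrial membrane to the synthesis of ATP. Complex I takes electrons from NADH and complex II takes them from succinate, complex III passes them to cytochrome c, complex IV reduces oxygen, and complex V uses the resulting proton gradient to make ATP. Most subunits are encoded in the nucleus, a few core subunits are encoded in mitochondrial DNA, and several complex IV subunits have a ubiquitous form and a form restricted to muscle, testis or other tissues. m6A is written on nuclear transcripts by a complex whose catalytic subunit is Mettl3, mostly within the consensus DRACH (D is A, G or T, R is A or G, H is A, C or T), and in chondrocytes and their progenitors energy metabolism leans strongly on glycolysis.

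The study sorted 8 populations of cells from the long bones of C57Bl6 mice at postnatal day 3, all without treatment, by flow cytometry on surface markers after exclusion of CD45+, Ter119+ and Tie2+ cells. SSC (skeletal stem cell), pre-BCSP and BCSP (bone, cartilage and stromal progenitor) are the stem and progenitor populations, and PCP, THY, BLSP, 6C3 and HEC are the downstream populations. Each wild-type (WT) population had 2 input libraries (mRNA) and 2 IP libraries made with an m6A antibody. A further 12 libraries labelled Mettl3cko came from SSC, pre-BCSP and BCSP of Mettl3 fl/fl;Col2a1-Cre mice, again as 2 inputs and 2 IPs each. The paper calls Mettl3 fl/fl control mice without Cre WT in its genotype comparison. It does not state whether all 8 WT populations carried the floxed allele. Deletion was limited to cells in which the Col2a1 promoter had been active, and the mice came from several litters with the sexes not separated. The genotype rested on the sample titles, since the genotype field read wild type for all 44 libraries.

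Library totals were 19795666 to 44046651 counts in the WT inputs, 16480027 to 35856651 in the WT IPs, 30050178 to 35325482 in the Mettl3cko inputs and 22056571 to 33126857 in the Mettl3cko IPs. Mettl3 itself was not lower in the SSC and pre-BCSP inputs labelled Mettl3cko, and in BCSP the 4 values lay close together. It stood at 15.3 and 15.5 CPM (read counts scaled to equal library size) in WT SSC and 16.7 and 18.4 in Mettl3cko SSC, at 12.1 and 16.1 against 22.3 and 22.8 in pre-BCSP, and at 18 and 19.7 against 16.2 and 17.7 in BCSP, and a gene total cannot show the loss of part of a transcript. The paper reports loss of Mettl3 in these mice by qRT-PCR and, in SSC, by western blot. It also reports lower m6A in stem and progenitor cells by dot blot and in its m6A profiles. The IP libraries labelled Mettl3cko were sparser: of 5705 genes above 10 CPM in every input, 82 to 532 fell under 0.5 CPM there, compared with 0 to 22 in WT IPs. Cartilage and bone markers were abundant in every input (8 genes, summed CPM 54384 or more), whereas Hlf, for which HEC is named, was not highest in HEC.

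The members took 0.639% to 0.999% of the counts of a WT input and 1.03% to 2.01% of the counts of a WT IP, and every WT IP share lay above every WT input share. By population, the IP share was lowest in SSC at 1.12% ± 0.134 (SD, n = 2) and highest in THY at 1.83% ± 0.256 (SD, n = 2). In Mettl3cko the ranges were 0.614% to 0.784% for inputs and 1.40% to 1.70% for IPs. In bulk libraries such as these, fewer cells of a type and less RNA per cell cannot be told apart.

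Members recovered most and least by the antibody both held the consensus in their coding sequence, and windows of 25 bases around it are shown for 6 of them, read from the GENCODE transcripts, with GGACH, the form of the consensus most often methylated, in capitals. Ndufa4, Ndufc1 and Cox7a2 were the members with the highest mean IP to input ratio, and Ndufv1, Uqcrc1 and Sdha were those with the lowest.
Ndufa4: ctgtgaatgtGGACTacagcaaact
Ndufc1: gttggcagttGGACTgtccgtgggc
Cox7a2: attgcccagaGGACCatcagcacca
Ndufv1: gcacctgtaaGGACCgagagatcat
Uqcrc1: tcagcatcttGGACAacgggctgcg
Sdha: acatggaagaGGACAactggagatg
These windows are coding exon sequence at chr6:11900560-11900584 (exon 4, minus strand), chr3:51408169-51408193 (exon 2, minus), chr9:79758543-79758567 (exon 2, minus), chr19:4009944-4009968 (exon 4, minus), chr9:108937095-108937119 (exon 2, plus) and chr13:74339666-74339690 (exon 4, minus) of GRCm38. Ndufa4 held 2 GGACH in a transcript of 610 bases and Cox7a2 2 in 659 bases, whereas Sdha held 12 in 2900 bases and Ndufv1 6 in 1661 bases. Ndufc1 and Uqcrc1 did not differ in number, with 4 in 1249 bases and 4 in 1653 bases. Among these 6, the transcripts recovered most were short in coding sequence (228 to 249 bases) and those recovered least were long (1392 to 1992 bases).

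In the IP libraries of all 8 WT populations many subunit transcripts of complexes I, III, IV and V were recovered above input, whereas those of complex II and of the large catalytic subunits mostly were not. A transcript was called tagged at a log2 IP to input ratio above 1 and depleted at one below -1, each with an unadjusted p under 0.05 in edgeR's quasi-likelihood test. Tagged members numbered 37 of 95 tested in SSC, beside 10.4% of all genes tested, and 24 without WT SSC input 1. The corresponding counts were 49 of 94 in pre-BCSP (all genes 12%), 40 of 94 in BCSP (6.67%), and, downstream, 57 of 93 in HEC (13.5%), 57 of 93 in 6C3 (14.5%), 55 of 93 in BLSP (12.4%), 60 of 92 in THY (12.4%) and 60 of 92 in PCP (10.6%). The members' share thus exceeded the share of all genes in each population. Depleted members numbered 4, 3, 5, 4, 3, 3, 2 and 3 in the same order, beside 13.9%, 14.8%, 11.7%, 14.2%, 17.0%, 14.8%, 15% and 14.5% of all genes.

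The median log2 ratio of the members was 0.75 in SSC, 1.06 in pre-BCSP and 0.98 in BCSP, and 1.32 in HEC, 1.48 in 6C3, 1.28 in BLSP, 1.49 in THY and 1.51 in PCP. The median of all genes tested lay between -0.05 and 0.03. Of 92 members tested in all 8 populations, 30 (32.6%) were tagged in every population, compared with 375 of 13471 genes (2.78%), and 29 members (31.5%) were tagged in no population, compared with 73.6% of genes. At a Benjamini-Hochberg adjusted p under 0.05 from edgeR, BCSP held 8 higher and 4 lower members, beside 136 higher and 371 lower of the 16040 genes tested there.

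**Figure D1:**
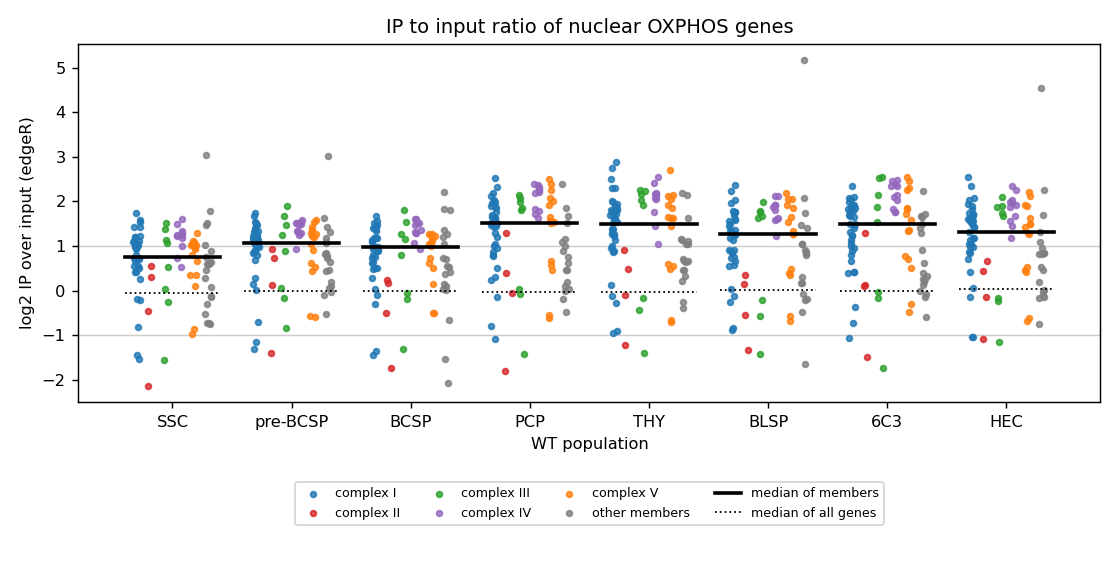
IP to input ratio of the members (log2, vertical axis) in the 8 WT populations (horizontal axis), each point 1 member from the fit of its population, with the medians of members and of all genes marked. The member medians run from 0.75 in SSC to 1.51 in PCP, above the medians of all genes, which lie between -0.05 and 0.03.

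Among complex I subunits, 15 of 36 were tagged in SSC, 22 in pre-BCSP, 14 in BCSP and 22 to 28 in the downstream populations. Ndufc1, an accessory subunit, averaged 1.98 over the 8 populations, Ndufb4 averaged 1.95, and Ndufa3 averaged 1.93 and was tagged in 6 of 8. Of the core subunits that carry redox centres, Ndufv1 and Ndufs1 lay at the other end. Ndufv2, Ndufs7 and Ndufs8 did not, with fitted ratios of 1.04, 0.88 and 0.95 in PCP and 1.26, 1.00 and 1.22 in THY. Ndufv1, which binds NADH, averaged -1.16 and was depleted in 6 of 8 populations, and Ndufs1 averaged -0.44 and was depleted in 1.

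Complex II stood apart as a whole. Its 4 subunits gave at most 1 tagged transcript in any population, and Sdha, the flavoprotein that oxidises succinate, was depleted in all 8. The log2 ratio of Sdha in the 2 IP and input pairs was -1.97 and -2.61 in SSC, -1.54 and -1.41 in pre-BCSP, -1.62 and -1.93 in BCSP, -0.89 and -1.41 in HEC, -1.69 and -1.29 in 6C3, -1.33 and -1.20 in BLSP, -1.36 and -1.15 in THY, and -1.76 and -1.73 in PCP. Every pair was below 0, and both pairs of SSC lay below all others. The fitted value in SSC was -2.14 (SE 0.338, edgeR quasi-likelihood adjusted p = 0.0311), and in HEC it was -1.07 (SE 0.175, adjusted p = 0.00264), or -0.93 without WT HEC IP 2, where it no longer passed the fold limit. The iron-sulfur subunit Sdhb averaged 0.35, and the membrane anchors Sdhc and Sdhd averaged 0.78 and -0.19.

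In complex III, 4 of 8 subunits were tagged in each of the 3 stem and progenitor populations and 5 in each downstream population. The small subunit Uqcrb averaged 1.89, and Uqcrc1, a core subunit, averaged -1.35 and was depleted in 7 of 8. In complex IV nearly every subunit was tagged: 9 of 11 in SSC, 10 in pre-BCSP, 10 in BCSP and 11 in each of the 5 downstream populations. Cox7a2 averaged 1.98, Cox7b 1.92 and Cox6b1 1.86. Ndufa4, once counted with complex I and now placed in complex IV, had the highest mean of all members at 2.01, with 1.35 and 0.94 in the 2 pairs of SSC, 1.35 and 1.48 in pre-BCSP, 1.42 and 1.48 in BCSP, and values from 2.02 to 2.81 in the downstream pairs. Its stem and downstream values did not overlap.

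Complex V had 6 of 15 subunits tagged in SSC, 9 in pre-BCSP, 8 in BCSP and 10 in each downstream population. The small membrane subunits Atp5k and Atp5l averaged 1.92 and 1.89, and the 3 genes Atp5g1, Atp5g2 and Atp5g3, which encode the same mature c subunit, averaged 1.55, 1.52 and 1.43. The catalytic head subunits Atp5a1 and Atp5b averaged -0.62 and -0.61. Paralogs could differ: Ndufa4l2 averaged 0.52 and was tagged in 0 of 8 populations beside Ndufa4 in 8 of 8, whereas Cox4i1 and Cox4i2 averaged 1.18 and 0.96 and were tagged in 5 and 4 populations. Cox7a2l averaged 0.65 and was not tagged in any.

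Across 91 members with an annotated coding sequence, the mean log2 ratio fell with the logarithm of coding length (Pearson r = -0.837, Spearman rho = -0.827, across genes, which are not independent replicates). With transcript length r was -0.595 and rho -0.679, and with the number of DRACH sites r was -0.546 and rho -0.647. Across 12070 other genes the coding-length values were -0.102 and -0.096. The points share the same libraries, and library amplification and Tn5 fragmentation took place after the antibody step, so the part of fragment length in these ratios was not tested.

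Short genes outside the list were also recovered above input. Other genes with coding sequences of at most 300 bases had medians of 0.97 in SSC, 1.12 in pre-BCSP, 1.03 in BCSP, 1.24 in HEC, 1.38 in 6C3, 1.14 in BLSP, 1.35 in THY and 1.35 in PCP. Members of that length had 1.08, 1.32, 1.29, 1.96, 2.15, 1.91, 2.17 and 2.22 in the same order. The gap was thus wider in the downstream populations by coding length, but it narrowed among the shortest transcripts when genes were matched on transcript length. Among transcripts of 501 to 750 bases, members and other genes had medians of 1.06 and 1.09 in SSC, 1.33 and 1.26 in pre-BCSP, 1.25 and 1.18 in BCSP, 1.65 and 1.57 in HEC, 1.91 and 1.79 in 6C3, 1.62 and 1.48 in BLSP, 1.80 and 1.71 in THY and 1.86 and 1.63 in PCP. Among transcripts of at most 500 bases in 6C3 the members were the lower, with 1.88 beside 2.06. At 751 to 1000 bases the gap stayed wide downstream, with 1.64 beside 0.93 in PCP and 1.69 beside 0.99 in THY. In SSC it was absent at that length, with 0.72 beside 0.75. The 6 members whose principal annotated transcript had 3001 to 5000 bases had 1.25 beside -0.48 in PCP. Of these, Atp5g1, Ndufab1, Ndufb2, Ndufaf4 and Sdhc also have annotated coding transcripts of 298 to 673 bases. The gap at this length therefore depends on the transcript chosen. By coding length again, above 1500 bases, the 4 members had medians from -0.92 to -0.43 and other genes from -0.29 to -0.10. Ndufv3, with a coding sequence of 1404 bases and a mean of 1.11, lay above this trend, and Ndufa4l2 (261 bases, 0.52) and Sdhd (477 bases, -0.19) lay below it. Ndufv3 also has an annotated coding transcript of only 493 bases, and gene counts cannot tell which form was recovered.

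**Figure D2:**
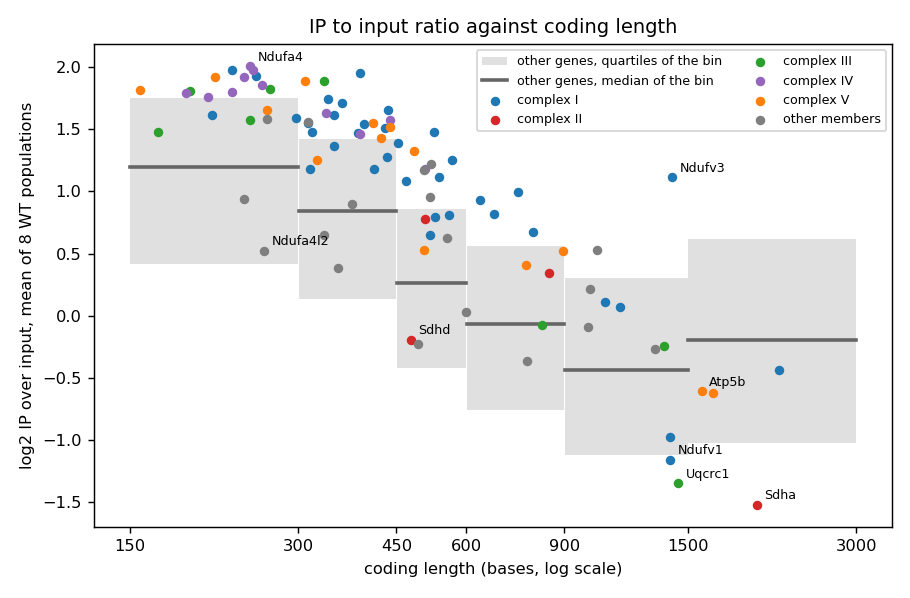
Mean log2 IP to input ratio over the 8 WT populations (vertical axis) against coding length in bases (horizontal log axis), 1 point per member coloured by complex, with grey bands for the quartiles and a line for the median of other genes in each length class. Below 300 bases the plotted subunits of complexes I, III, IV and V lie above the median of other genes in their length class, some of them within its quartile band, and Sdha at -1.52 is the lowest point.

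A group of mostly small subunits was recovered less in the stem and progenitor populations than downstream. For the IP to input ratio, averaged over SSC, pre-BCSP and BCSP and set against the average of the 5 downstream populations in 1 fit over 32 libraries, 22 of 96 members were lower at an adjusted p under 0.05, beside 1.77% of all genes tested. No member was higher, at the adjusted or at an unadjusted p under 0.05 in edgeR, beside 3.06% of all genes at the adjusted p, and DESeq2 called 35 lower. Without WT SSC IP 1, edgeR called 34. The median difference was -0.20 over members and -0.08 over all genes. The 22 comprised 9 subunits of complex I, 2 of complex III, 6 of complex IV and 5 of complex V, and 14 of the 25 members with coding sequences of at most 300 bases were among them, beside 7.20% of other genes of that length. Among transcripts of 501 to 750 bases the medians were alike, -0.34 for members and -0.33 for other genes. Of these, 11 of 33 members and 5.84% of other genes were lower. Among transcripts of at most 500 bases the medians were -1.09 and -0.51.

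Ndufa3, an accessory subunit at chr7:3617373-3620327, had the largest difference. Its log2 ratios were 1.01 and 0.13 in SSC, 0.74 and 1.18 in pre-BCSP and 0.71 and 1.24 in BCSP, compared with 2.35 and 2.65 in HEC, 1.92 and 2.73 in 6C3, 2.34 and 2.56 in BLSP, 3.09 and 2.61 in THY, and 2.50 and 2.65 in PCP. The highest stem and progenitor pair was below the lowest downstream pair. The difference was -1.50 (SE 0.183, edgeR quasi-likelihood adjusted p = 1.2e-05).

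Atp5k, a small subunit of the ATP synthase membrane part, gave 1.39 and 0.50 in SSC, 1.09 and 1.20 in pre-BCSP, 0.67 and 1.51 in BCSP and 1.91 to 3.11 downstream, with a difference of -1.12 (SE 0.212, adjusted p = 0.00175). Uqcr11, a small subunit of complex III, gave 0.84 and -0.04, 0.59 and 1.04, and 0.59 and 0.97 in the same populations and 1.65 to 2.50 downstream, with a difference of -1.06 (SE 0.170, adjusted p = 0.000315). In both, stem and downstream pairs did not overlap. Ndufv3 gave 0.76 and -0.62 in SSC, 0.30 and 0.09 in pre-BCSP, 0.50 and 0.66 in BCSP and 0.84 to 2.28 downstream, with a difference of -1.05 (SE 0.195, adjusted p = 0.00149). It was also separated, and it differed from the other 3 in the long coding sequence of its principal annotated transcript.

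Atp5e and Ndufc1 followed with -0.93 (SE 0.219, adjusted p = 0.0115) and -0.86 (SE 0.189, adjusted p = 0.00654). These 6 were called in each of the 16 fits that left out 1 IP library. Sdha and Uqcrc1, at the low end of recovery, were not called. The 2 members with the smallest p in the higher direction were Ndufaf4, an assembly factor, at 0.36 (unadjusted p = 0.128) and Uqcrfs1, the Rieske iron-sulfur protein, at 0.26 (unadjusted p = 0.136). Per pair, the median over 92 members lay between 0.43 and 1.12 in the 6 stem and progenitor pairs and between 1.10 and 1.63 in the 10 downstream pairs, while the median over 15161 genes lay between -0.27 and -0.06 in all 16. Transcripts of the mitochondrial genome took, as population means, 1.77% to 2.24% of IP counts in the stem and progenitor populations and 4.90% to 7.94% downstream. With these genes left out of the fit, 22 members were lower.

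**Figure D3:**
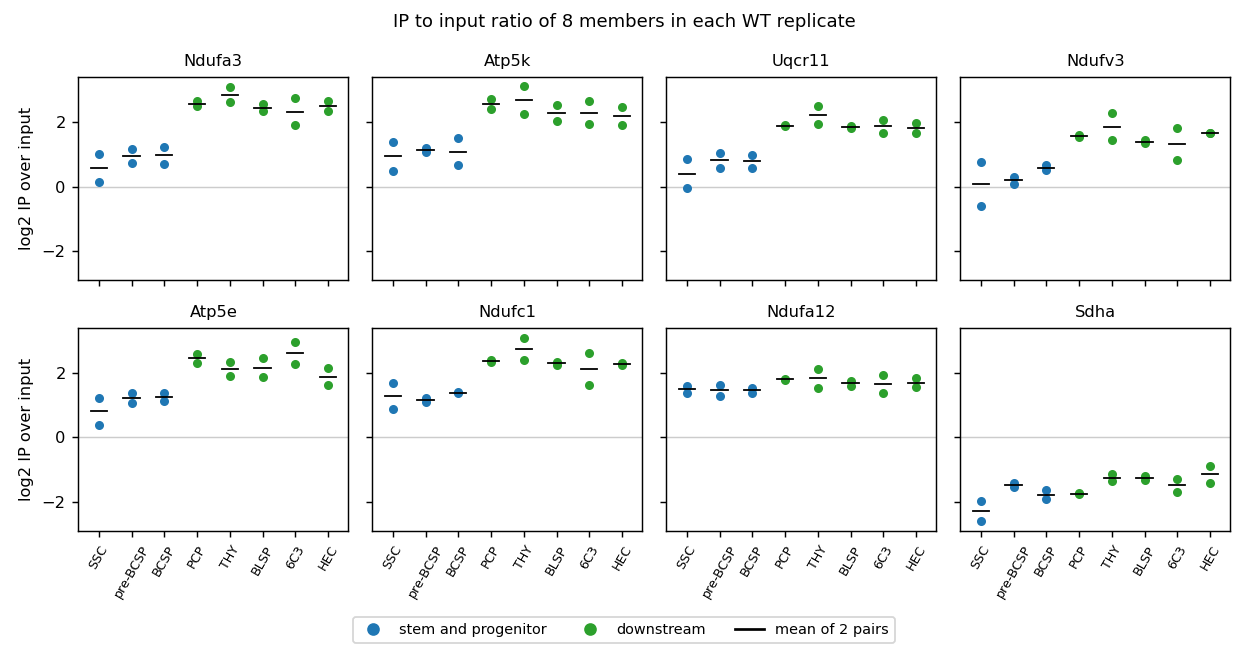
Log2 IP to input ratio (vertical axis) of 8 members in each of the 2 replicate pairs of the 8 WT populations (horizontal axis), stem and progenitor populations in blue and downstream populations in green. In Ndufa3, Atp5k, Uqcr11 and Ndufv3 all 6 blue points lie below all 10 green points, while Ndufa12 and Sdha, drawn for contrast, overlap.

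At the mRNA level, 28 of 94 members tested differed among the 8 WT populations (edgeR quasi-likelihood F test, adjusted p under 0.05), beside 40.1% of all genes. DESeq2 called 50, and without WT BCSP input 1, the input with the highest member share, edgeR called 17. By F the leading members were Cox4i2 (F = 22.1, adjusted p = 1.1e-05), Ndufb7 (F = 12.8, adjusted p = 0.000182), Cox7a2l (F = 10.6, adjusted p = 0.000471), Ndufaf4 (F = 9.64, adjusted p = 0.000748), Uqcrh (F = 9.59, adjusted p = 0.000768) and Sdha (F = 9.41, adjusted p = 0.000843). Complex IV contributed 1 of its 11 subunits, Cox7c.

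With the stem and progenitor populations set against the downstream populations, 29 of 94 members were higher, beside 23.1% of all genes, and 11 were lower, beside 28.3%. The median difference was 0.08 over members and -0.11 over all genes, on the log2 scale. Library size alone as the scaling gave 21 higher and 17 lower. The members higher included 9 subunits of complex I, 2 of complex II, 5 of complex III and 6 of complex V, and those lower included 7 of complex I and 3 of complex V. In complex IV, 0 of 11 subunits passed in either direction at the adjusted p, with differences from -0.26 to 0.20.

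Ndufaf4, an assembly factor of complex I at chr4:24898083-24905001, was highest in the stem and progenitor populations. Its level was 60.7 and 65.0 CPM in SSC, 67.1 and 57.1 in pre-BCSP and 63.5 and 54.8 in BCSP, and 35.6 and 29.0 in HEC, 15.4 and 28.5 in 6C3, 29.1 and 16.9 in BLSP, 30.8 and 21.7 in THY, and 14.3 and 25.2 in PCP. The groups did not overlap, and the difference was 1.34 (SE 0.167, edgeR adjusted p = 6e-06). Cox7a2l stood at 73.1 to 118 CPM in the 6 stem and progenitor inputs and at 34.0 to 60.5 CPM downstream, a difference of 1.08 (SE 0.131, adjusted p = 4e-06).

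Uqcrh, the hinge protein of complex III, ranged from 73.0 to 119.6 CPM in the stem and progenitor inputs and from 25.3 to 72.8 CPM downstream, a difference of 0.99 (SE 0.133, adjusted p = 1.3e-05). Sdha stood at 231 and 200 CPM in SSC, 229 and 215 in pre-BCSP and 174 and 194 in BCSP, and at 122 to 144 CPM downstream, a difference of 0.66 (SE 0.0848, adjusted p = 8e-06). Neither gene's groups overlapped, although those of Uqcrh nearly touched. Atp5sl was higher by 1.19 (SE 0.167, adjusted p = 2.1e-05), at 8.87 to 15.8 CPM against 3.05 to 7.38 CPM. Cox6a2, the muscle isoform of subunit 6a, had the largest fitted difference, but it rested on raw counts of 44 and 9 in SSC, 12 and 0 in pre-BCSP, 30 and 2 in BCSP, and 0 to 5 downstream, and no fold is given.

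Ndufb7, an accessory subunit of complex I at chr8:83566671-83571626, was the clearest member in the other direction. It stood at 43.0 and 47.3 CPM in SSC, 44.2 and 39.8 in pre-BCSP and 74.7 and 52.3 in BCSP, and at 86.5 to 122 CPM downstream, without overlap, a difference of -0.99 (SE 0.111, adjusted p = 2e-06). Atp5k differed by -0.62 (SE 0.151, adjusted p = 0.00264), and Ndufc1 and Ndufa3 both by -0.56 (SE 0.120 and 0.113, adjusted p = 0.000972 and 0.000625). Ndufa5 differed by -0.45 (SE 0.115, adjusted p = 0.00415) and Ndufb2 by -0.41 (SE 0.159, adjusted p = 0.0434). The call of Ndufb2 held in 2 of 16 fits that each left out 1 input library. Atp5k, Ndufc1, Ndufa3 and Ndufa5 were thus lower in the stem and progenitor populations in mRNA and in the IP to input ratio, which share the input libraries.

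Of the core subunits, Ndufs1 (0.31), Uqcrfs1 (0.35), Atp5a1 (0.32) and Atp5b (0.36) were higher in the stem and progenitor populations at the adjusted p, all by less than Sdha. The number of lower members was sensitive to single populations: it was 2 without pre-BCSP, 7 without SSC and 18 without BCSP. It was 6 without WT SSC input 1, 6 without WT pre-BCSP input 2 and 7 without WT HEC input 1.

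Markers of other cells moved between the same groups. Summed over 12 blood genes, the inputs held 4.47 to 10.9 CPM in the stem and progenitor populations and 19.3 to 154 CPM downstream, where most of it was globin, and the leukocyte gene Ptprc stood at 0 to 0.83 CPM in the WT inputs. Over 10 striated muscle genes they held 31.2 to 83.7 CPM and 13.7 to 20.4 CPM, carried by Tnnt3 and Tnni2, while the defining muscle genes Ckm, Myog and Myod1 stayed at 2.77 CPM or below in every WT input. Over 5 endothelial genes they held 1.07 to 20.7 CPM and 1.15 to 85.3 CPM, over 3 osteoclast genes 94.6 to 139.99 CPM and 111 to 620 CPM, and over 2 brown fat genes 8.61 to 29.9 CPM and 1.08 to 5.55 CPM. The last sum was carried by Cidea, while Ucp1, which defines brown fat, stayed at 2.32 CPM or below in every WT input. The part of these cells in the members' differences was not tested.

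**Figure D4:**
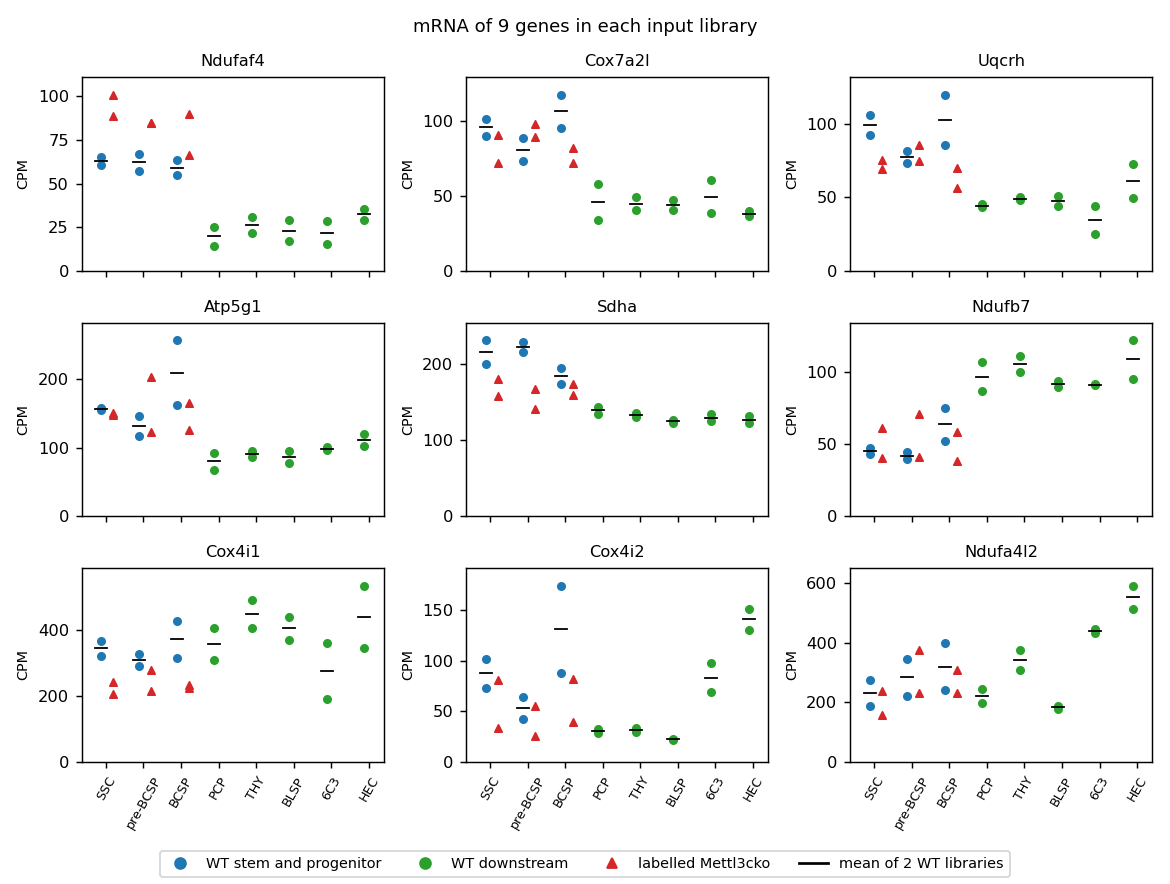
Input mRNA of 9 members in CPM (vertical axis, linear from 0) by population (horizontal axis), stem and progenitor WT libraries in blue, downstream WT libraries in green, Mettl3cko libraries as red triangles, with a line at the mean of the 2 WT libraries. Ndufaf4, Cox7a2l, Uqcrh and Sdha are higher in the blue populations without overlap, and Ndufb7 is lower.

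Scaled to transcript length, as CPM per kilobase of the principal annotated transcript averaged over the 8 WT populations, Cox4i1 was the most abundant member at 483 (362 in 6C3 to 587 in THY). Ndufa4l2 reached 344 and Ndufa4 126, and Atp5b was the highest of complex V at 265. In complex I the levels ran from 2.19 for Ndufb2 to 211 for Ndufa7, in complex II from 10.8 for Sdhc to 116 for Sdhb, in complex III from 42.8 for Uqcrc2 to 245 for Uqcr11, and in complex IV from 53.7 for Cox5a to 483. The lowest of complex V was Atp5g1 at 25.6, whose annotated transcript is 4715 bases long. Such levels depend on the transcript chosen.

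Of the complex IV isoform families, the muscle and testis forms Cox6a2, Cox7a1, Cox8b, Cox7b2 and Cox8c were at 1.7 CPM or below in every WT input, and Cox6b2 had population means of 1.42 to 4.23 CPM. Their ubiquitous counterparts had population means of 133 to 223 CPM (Cox6a1), 88.3 to 165 (Cox6b1), 65.4 to 110 (Cox7a2) and 77.8 to 134 (Cox8a). Cox4i2, the isoform of subunit 4 known from lung and induced by low oxygen, was an exception. It stood at 102 and 73.0 CPM in SSC, 63.8 and 42.3 in pre-BCSP and 174 and 87.7 in BCSP, at 28.4 and 32.3 in PCP, 29.4 and 33.1 in THY and 22.9 and 21.5 in BLSP, and at 69.5 and 97.4 in 6C3 and 152 and 131 in HEC.

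Cox4i2 was thus lowest in PCP, THY and BLSP, whose 6 values lay below all others, while HEC and BCSP overlapped. Over the stem and progenitor populations it was higher by 0.83 (SE 0.149, edgeR adjusted p = 0.000234) than over the downstream populations, although HEC was among its highest. Ndufa4l2, likewise known as a target of hypoxia-inducible factor, was highest in HEC at 591 and 513 CPM, followed by 6C3 at 446 and 431, and lowest in BLSP at 178 and 188 (F = 7.94, adjusted p = 0.00188). Cox4i1 ranged from 192 to 535 CPM and did not pass the test among populations. It shares 154 bases of exon with Emc8 on the opposite strand, and with the strand setting unknown the reads of such partners cannot be told apart.

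Between the libraries labelled Mettl3cko and WT, no member passed an adjusted p under 0.05 in mRNA in any population tested alone. The smallest adjusted p in edgeR's quasi-likelihood test was 0.162 in SSC, 0.569 in pre-BCSP and 0.209 in BCSP. At a log2 change beyond 0.5 with an unadjusted p under 0.05, 8 of 92 members were lower (all genes 7.07%) and 3 higher (6.96%) in SSC, 0 of 93 lower (4.48%) and 3 higher (3.88%) in pre-BCSP, and 25 of 93 lower (5.72%) and 1 higher (7.22%) in BCSP. The median log2 change was -0.20 in SSC, 0.16 in pre-BCSP and -0.48 in BCSP, beside -0.02, -0.02 and -0.01 for all genes.

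In BCSP the share of lower members stood above that of all genes, and it depended on single libraries. Without WT BCSP input 1, in which the members took 0.999% of counts, 2 members were lower, without WT BCSP input 2 there were 42, and without Mettl3cko BCSP input 2 there were 4. The 25 comprised 12 subunits of complex I, 4 of complex IV, 5 of complex V, 1 each of complexes II and III, the assembly factor Sdhaf4 and Cox4i2. Other genes with coding sequences of at most 300 bases had a median of -0.36, and 15.4% of them were lower, beside a median of -0.56 for members of that length. Among transcripts of 501 to 750 bases, other genes had a median of -0.49 and 21.7% of them were lower, beside a median of -0.56 for the members. Cox4i2 (-1.11), Ndufs7 (-1.10), Sdhaf4 (-0.88), Ndufa2 (-0.84), Atp5g2 (-0.84) and Sdhc (-0.80) changed most, and the assembly factor Ndufaf1 was higher by 0.69.

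In SSC the lower members were led by Ndufs7 (-0.97), Ndufaf7 (-0.93), Atp5g2 (-0.87), Sdhc (-0.78), Atp5l (-0.67) and Cox4i1 (-0.63), and Ndufaf1 (0.71), Uqcrq (0.62) and Ndufaf4 (0.59) were higher. The count of 8 became 2 without WT SSC input 2, 4 without Mettl3cko SSC input 2 and 16 without Mettl3cko SSC input 1, and the count of 3 higher became 0 without either WT SSC input and 1 without Mettl3cko SSC input 1. Ndufs7 and Ndufaf7 passed in all 4 of these fits. In pre-BCSP the higher members were Uqcrq (0.93), Ndufs4 (0.79) and Sdhb (0.58), a count that was 0 without either WT input or without Mettl3cko pre-BCSP input 1 and 18 without Mettl3cko pre-BCSP input 2. The smallest p in the lower direction there belonged to Sdha at -0.52 (edgeR, unadjusted p = 0.0512) and Ndufs7 at -0.32 (unadjusted p = 0.186).

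In the mean over the 3 populations, fitted on all 12 inputs, 3 of 93 members were lower at an adjusted p under 0.05, beside 2.72% of all genes, and 2 were higher, beside 3.75%. The median was -0.15 over members and -0.05 over all genes. Ndufs7, the core subunit of complex I that holds the last iron-sulfur cluster before ubiquinone, at chr10:80249121-80256794, was lower. Its level was 70.9 and 74.4 CPM in WT SSC against 42.5 and 32.1 in Mettl3cko SSC, 70.2 and 68.9 against 57.9 and 52.3 in pre-BCSP, and 92.9 and 87.1 against 36.3 and 47.7 in BCSP. The 6 WT values lay above the 6 Mettl3cko values. The mean log2 change was -0.79 (SE 0.123, edgeR adjusted p = 0.00482), and it was called in 12 of 12 fits that left out 1 library, with adjusted p from 0.00412 to 0.019.

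Cox4i1 stood at 321 and 368 CPM against 242 and 206 in SSC, 327 and 290 against 215 and 280 in pre-BCSP, and 428 and 315 against 234 and 224 in BCSP, without overlap, and fell by 0.54 (SE 0.121, adjusted p = 0.0239). Atp5g2 fell by 0.60 (SE 0.152, adjusted p = 0.036), with overlap in pre-BCSP. Their calls held in 5 and 3 of 12 fits that left out 1 library. Ndufaf1, an assembly factor, was at 18.2 and 18 CPM against 31.6 and 27.9 in SSC, 22.0 and 16 against 25.5 and 28.4 in pre-BCSP, and 21.7 and 17.8 against 31.9 and 31.6 in BCSP, higher by 0.65 (SE 0.140, adjusted p = 0.0196) without overlap and called in 6 of 12. Ndufaf4 was higher by 0.49 (SE 0.122, adjusted p = 0.0337), called in 3 of 12, at 66.3 to 101 CPM in Mettl3cko beside 54.8 to 67.1 CPM in WT. The 2 higher calls were both lost without any 1 of WT SSC input 1 or 2, WT pre-BCSP input 2, WT BCSP input 2 or Mettl3cko SSC input 1.

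A test of whether the genotype difference itself varied among SSC, pre-BCSP and BCSP called 0 of 93 members in edgeR and 0% of all genes, with a smallest adjusted p of 0.941 among members and 6 members at an unadjusted p under 0.05. The blood markers also differed by genotype, summing to 4.47 to 10.9 CPM in the 6 WT inputs and 16.8 to 54.9 CPM in the 6 Mettl3cko inputs over 12 genes. Their part in the members' changes was not tested.

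The IP to input ratio of several complex IV, V and I subunits was higher in Mettl3cko than in WT in SSC and BCSP, but at an unadjusted p alone. The ratios are relative to the other genes of each library, so a higher ratio does not measure a gain of m6A. The paper reports lower m6A levels in SSC, pre-BCSP and BCSP after Mettl3 loss. No member passed an adjusted p under 0.05 in edgeR, with smallest values of 0.183 in SSC, 0.279 in pre-BCSP and 0.320 in BCSP. At an unadjusted p under 0.05, 26 of 95 members were higher in SSC (all genes 3.26%) and 5 lower (11.3%), 5 of 94 were higher in pre-BCSP (2.06%) and 3 lower (9.87%), and 17 of 94 were higher in BCSP (2.49%) and 0 lower (7.82%). With the replicate number as a block, which pairs each IP with the input of the same number, 29 were higher in BCSP. Median differences were 0.71, 0.23 and 0.54 for members and -0.16, -0.26 and -0.10 for all genes, and scaling by library size alone gave 15 higher in SSC.

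The members higher in SSC comprised 9 of 11 subunits of complex IV, 8 of complex V, 6 of complex I and 3 of complex III. Atp5e, a small subunit of the central stalk of ATP synthase, had log2 ratios of 1.23 and 0.40 in WT SSC and 2.51 and 3.37 in Mettl3cko SSC, a difference of 2.09 (SE 0.504, edgeR unadjusted p = 0.00394). Ndufa5 (1.96), Cox5b (1.95), Atp5k (1.89), Ndufs6 (1.86) and Uqcr11 (1.64) followed. In these 6 genes both WT SSC pairs were below both Mettl3cko SSC pairs. The second WT SSC pair was the lowest for each of them. The count of 26 became 9 and 8 without WT SSC input 1 or 2, 7 without WT SSC IP 2, 17 and 6 without Mettl3cko SSC input 1 or 2, and 41 without Mettl3cko SSC IP 1. Atp5e, Ndufa5, Cox5b and Ndufs6 passed in all 8 of these fits, and Atp5k and Uqcr11 in 4.

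In pre-BCSP, Atp5k (1.48), Ndufa5 (1.08), Atp5e (1.05), Ndufv3 (0.88) and Ndufa2 (0.82) were higher. In BCSP, Ndufaf2 (1.77), Atp5k (1.67), Ndufb7 (1.25), Ndufs7 (1.16), Ndufa5 (1.16) and Atp5e (1.11) led, and the count of 17 was 3 to 11 in the fits without WT BCSP input 1, either WT BCSP IP, either Mettl3cko BCSP input or Mettl3cko BCSP IP 1, and 22 in the other 2. The count in pre-BCSP ran from 0 to 14, with 0 without WT pre-BCSP input 1 or WT pre-BCSP IP 1, 1 without WT pre-BCSP input 2, 14 without Mettl3cko pre-BCSP input 1 and 11 without Mettl3cko pre-BCSP IP 1. Atp5e, Atp5k and Ndufa5 therefore passed in each of the 3 populations, and they were also among the members whose ratio was lower in WT stem and progenitor cells, a comparison that shares the WT libraries. Short genes outside the list moved the same way by less: in SSC, other genes of at most 300 coding bases had a median of 0.46 and 11.5% of them were higher, beside 1.05 and 58.3% for members.

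Among members lower in Mettl3cko SSC, most had lost nearly all IP counts: Atp5sl went from 210 and 157 raw counts in WT to 0 and 0, Ndufaf6 from 211 and 8 to 0 and 0, Atp5s from 205 and 145 to 0 and 2, and Ndufaf3 from 368 and 197 to 3 and 2. No fold is given for these. Uqcrfs1 kept 455 and 1464 counts beside 2303 and 2886 in WT, with log2 ratios of -2.53 and -1.40 beside 0.08 and -0.21, a difference of -1.73 (SE 0.609, edgeR unadjusted p = 0.0236). In pre-BCSP its difference was -0.96, at an unadjusted p under 0.05, and in BCSP it was -0.72 (unadjusted p = 0.105). These low counts stand beside the 82 to 532 abundant genes missing from each Mettl3cko IP, and the part of that loss in the ratios was not tested.

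**Figure D5:**
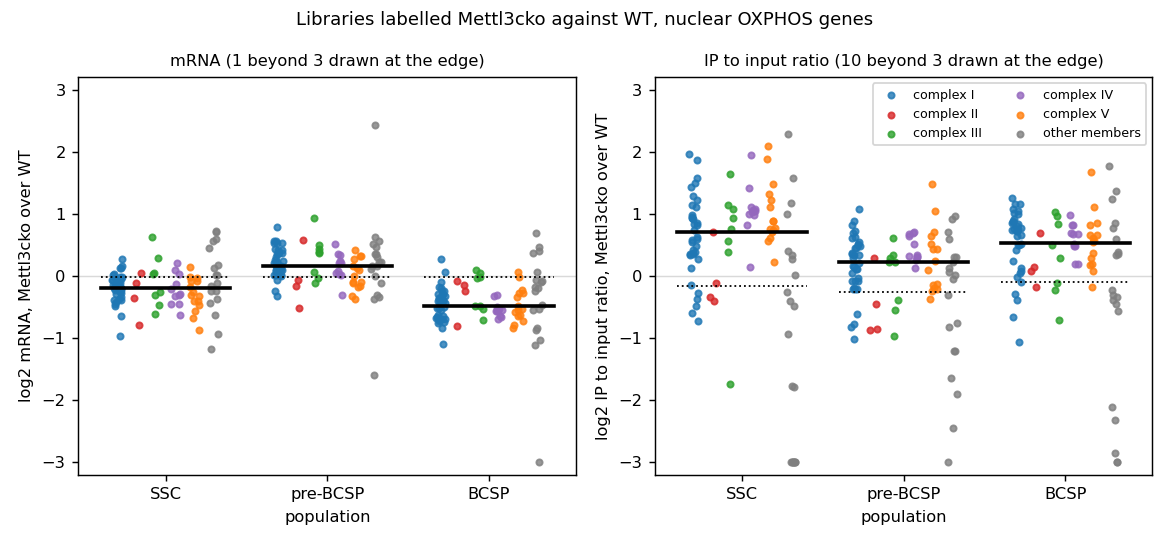
Log2 difference of Mettl3cko from WT (vertical axis) for each member in SSC, pre-BCSP and BCSP (horizontal axis), input mRNA in 1 panel and the IP to input ratio in the other, with values beyond 3 drawn at the edge (1 in mRNA, 10 in the ratio). The mRNA medians are -0.20, 0.16 and -0.48, and the ratio medians are 0.71, 0.23 and 0.54.

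Setting mRNA and ratio side by side, mRNA was lower and the ratio higher in Mettl3cko for 53 of 92 members in SSC, 14 of 93 in pre-BCSP and 70 of 93 in BCSP. The reverse held for 6, 24 and 8. Both quantities use the same input libraries.

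Promoters of the members held 2 motifs in a larger share of windows than promoters of other genes. RefSeq windows from 250 bases before to 50 bases after the start (GRCm38.p6) matched 77 members with 82 windows. The palindromic motif of the factor NRF1 (GCGC, any base, TGCGC), searched on both strands, was in 22 windows (26.8%) beside 4.55% of 32769 windows of other genes. CCGGAAG, an ETS motif that GABPA can bind, was in 20 (24.4%) beside 8.82%. Examples from the members are given with the motif or its complement in capitals.
Cox6a1: ggaacgggGCGCATGCGCgctctcgc
Uqcrc1: tccttacaGCGCTTGCGCctcagact
Atp5c1: gagctcccGCGCACGCGCactgagtc
Atp5h: ccccgacgGCGCAGGCGCcgcgcccg
They lie at chr5:115349103-115349128 (minus strand), chr9:108936645-108936670 (plus), chr2:10080432-10080457 (minus) and chr11:115420043-115420068 (minus). Nrf1 mRNA was higher in the stem and progenitor populations by 0.61 (edgeR adjusted p = 0.000175) and Gabpa was lower by a log2 difference of -0.45 (adjusted p = 0.00999). Of these 4 members, Atp5h was lower there at -0.31 (adjusted p = 0.0189), and Cox6a1 (-0.08), Uqcrc1 (0.04) and Atp5c1 (0.18) did not pass.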

How the data were processed

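SLIM-seq, an m6A antibody IP with a matched input made from small amounts of RNA, was analysed in 44 mouse libraries. The deposited table holds counts of reads per gene; the authors trimmed reads with fastp 0.20.1, aligned them with HISAT2 2.2.1 to GRCm38 and counted with featureCounts 2.0.1, with strand setting and annotation release not given in the sources used here. Of 96 members, 34 share an exon with another annotated gene. Entries with date-like names (128, at most 0.390% of counts) were left out.

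Counts were fitted with edgeR 4.0.16 (R 4.3.3; limma 3.58.1), with TMM scaling, filterByExpr and the quasi-likelihood test, on all genes, with Benjamini-Hochberg adjustment over all genes of each fit and thresholds of 0.05. CPM values are TMM-scaled. A call of IP against input needed a log2 change beyond 1 and of Mettl3cko mRNA one beyond 0.5, each with an unadjusted p, as in the study. p-values measure the spread between 2 libraries, for which separate animals are not stated. Ratios per replicate are IP over the input of the same number. At 16480027 to 44046651 counts a library, counting error limits only members with few counts.

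According to the paper, sorted cells of 1 batch were divided between m6A profiling and the matching mRNA sequencing. Over 6293 genes the deviations of IP and input of the same number had r above 0 in 11 of 11 pairs. The values were 0.017 and 0.066 in 6C3 and HEC, too weak to show the pairing by number there, and 0.107 to 0.587 elsewhere. Numbers do not pair WT with Mettl3cko or populations with each other (r from -0.502 to 0.439 among populations), so those fits with a block are given as hints only.

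Genes were named by rule: in each comparison up to 6 called members with the largest change in each direction (or the 2 with the smallest p), the isoform families, complex II, the core subunits, the highest and lowest level per length, and Mettl3. The members and gene lists were chosen with earlier results of these data known. Positions and transcripts are from GENCODE M21 (94 members by symbol, 1 by an older symbol, 1 without position) and promoters from RefSeq. The fits were tested on simulated data. Alternatives were DESeq2 1.42.0, its size factors, library size alone, no filter, the replicate block, the mitochondrial genes or a population left out, and other sets of libraries and thresholds; leaving out 1 library of the fits over 12, 16 or 32 libraries was chosen after seeing the data. Results for some named genes are not reported here.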

Additional observations from a re-analysis of the deposited data

Results flagged for a closer look

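The effect on the IP to input ratio that differed between the stem and progenitor populations and the downstream populations, by the test of the difference itself (edgeR quasi-likelihood, Benjamini-Hochberg adjusted p under 0.05), is listed here for all 22 members that passed, as the log2 ratio of IP to input in SSC, pre-BCSP and BCSP minus that in PCP, THY, BLSP, 6C3 and HEC. In complex I the differences were -1.499 for Ndufa3, -1.05 for Ndufv3, -0.863 for Ndufc1, -0.813 for Ndufa5, -0.792 for Ndufa7, -0.718 for Ndufa11, -0.708 for Ndufs6, -0.701 for Ndufa2 and -0.637 for Ndufa1. In complex III they were -1.062 for Uqcr11 and -0.718 for Uqcr10. In complex IV they were -0.849 for Ndufa4, -0.761 for Cox8a, -0.755 for Cox7a2, -0.706 for Cox6c, -0.677 for Cox5b and -0.643 for Cox7c, and in complex V they were -1.12 for Atp5k, -0.927 for Atp5e, -0.721 for Atp5l, -0.669 for Atp5j and -0.639 for Atp5j2. Groups of 2 libraries are too small for a test of a library that stands apart within its group.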

How the results depend on the processing

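With the IP to input pairing as a replicate block, the ratio of Mettl3cko over WT was higher in 29 members in BCSP instead of 17, and the block moved no other count of calls by over 1.5 times. DESeq2 gave 50 members among the WT populations, 35 with a lower ratio in stem and progenitor cells, 1 lower in Mettl3cko pre-BCSP mRNA, 4 higher and 7 lower in the mean over 3 populations and 9 with a higher ratio in Mettl3cko pre-BCSP. Library size alone gave 17 lower in stem and progenitor mRNA, 4 depleted in THY, 1 higher in the mean and 15 with a higher ratio in Mettl3cko SSC. Without the filter on low counts, 7 were lower in stem and progenitor mRNA, 4 were depleted in THY and 6 were lower in the mean, and the Mettl3cko ratio was higher in 12 in SSC and 1 in pre-BCSP and lower in 1 in BCSP. A fit over all 32 WT libraries gave 4 depleted in THY, and over 12 inputs 1 lower in pre-BCSP. With an adjusted in place of the unadjusted p and the fold limits kept, IP against input gave 2 lower in SSC and 8 higher in BCSP, and Mettl3cko mRNA gave 0 in each population.

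Leaving out 1 library gave 17 to 38 members among populations, 23 to 32 higher and 6 to 16 lower in stem and progenitor mRNA, and 19 to 34 with a lower ratio there. Tagged and depleted members ran from 24 to 40 and 4 to 9 in SSC, 43 to 51 and 2 to 3 in pre-BCSP, 27 to 51 and 4 to 6 in BCSP, 55 to 59 and 3 to 3 in PCP, 48 to 66 and 2 to 4 in THY, 49 to 54 and 2 to 5 in BLSP, 53 to 60 and 3 to 3 in 6C3, and 53 to 57 and 2 to 5 in HEC. Mettl3cko mRNA gave 0 to 2 higher and 2 to 16 lower in SSC, 0 to 18 and 0 to 4 in pre-BCSP, 0 to 1 and 2 to 42 in BCSP, and 0 to 3 and 1 to 4 in the mean. The Mettl3cko ratio gave 6 to 41 higher and 4 to 13 lower in SSC, 0 to 14 and 0 to 9 in pre-BCSP, and 3 to 22 and 0 to 3 in BCSP. Leaving out SSC, pre-BCSP or BCSP gave 7, 2 or 18 lower in stem and progenitor mRNA. The cause of these changes was not tested. Leaving a replicate number out of every group leaves no residual degrees of freedom, so 1 library at a time was left out of the larger fits instead. No called member named in the text changed direction under these alternatives.

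With 2 libraries a group, the Mettl3cko comparisons within a population called no member after adjustment in edgeR, and Mettl3cko IP libraries lack counts for low members.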

Other observations

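The 13 subunits encoded by the mitochondrial genome, which are transcribed inside the organelle, were recovered by the antibody above input as well: 11 were tagged in SSC, 12 in pre-BCSP, 10 in BCSP, 11 in HEC, 13 in 6C3, 13 in BLSP, 8 in THY and 13 in PCP, with median log2 ratios of 1.57 in BCSP to 3.96 in 6C3. Of all genes tested, 6.67% to 14.5% were tagged, by population. Mitochondrial transcripts took 0.287% to 1.41% of counts in WT inputs and 1.56% to 9.10% in WT IPs. In the ratio of stem and progenitor over downstream populations 3 of the 13 were lower, beside 1.77% of all genes, with a median of -0.75. In mRNA mt-Atp6 was higher in the stem and progenitor populations by 1.01 (edgeR adjusted p = 0.0257), and mt-Nd6 (-0.91, adjusted p = 0.00124), mt-Nd2 (-0.88, adjusted p = 0.00065), mt-Nd5 (-0.75, adjusted p = 0.000411) and mt-Cytb (-0.55, adjusted p = 0.0105) were lower. In the mean over Mettl3cko populations 3 of 12 tested were lower, beside 2.72% of all genes.

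Glycolytic genes differed from the small subunits in the IP libraries. Of 16 glycolytic genes, 0 were tagged in 7 populations and 1 in 6C3, beside 6.67% to 14.5% of all genes. Between 5 and 8 were depleted, beside 11.7% to 17.0% of all genes. The glycolytic genes were not matched on length. In mRNA, where 23.1% of all genes were higher in the stem and progenitor populations and 28.3% lower, 9 of 16 were higher and 0 lower, with a median of 0.43, led by the glucose transporter Slc2a1 (2.17, edgeR adjusted p = 1.07e-08) and the phosphofructokinase Pfkl (1.23, adjusted p = 5.28e-05). Of 12 citric acid cycle genes 3 were higher, near the share of all genes, among them Suclg2 (0.86, adjusted p = 2.15e-05), and 4 lower, among them citrate synthase Cs (-0.65, adjusted p = 0.000142) and Ogdh (-0.58, adjusted p = 0.000677).

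Of 12 regulators of mitochondrial biogenesis, 7 were higher in stem and progenitor mRNA and 1 was lower. In that comparison, used for all lists of this paragraph, 23.1% of all genes were higher and 28.3% lower. Tfam, which packages and transcribes mitochondrial DNA, was higher by 1.55 (edgeR adjusted p = 2.98e-08) and Tfb2m by 1.14 (adjusted p = 4.8e-06), while the coactivators Ppargc1a (-0.66, adjusted p = 0.123) and Ppargc1b (-0.59, adjusted p = 0.127) did not pass. Of 31 assembly factors tested beside those named Nduf and Sdh, 14 were higher, among them Cox11 (1.36, adjusted p = 9.47e-07), Nubpl (1.24, adjusted p = 0.000142) and Cox14 (1.20, adjusted p = 1.09e-07), and 4 were lower, among them the copper chaperone Cox17 (-1.71, adjusted p = 9.61e-05) and Uqcc2 (-0.99, adjusted p = 0.000149). Of the cytochromes c and c1, 2 genes were tested and 1 was higher.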
